A study of Rattus norvegicus with 12 samples.

Results

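The TGF-β ligands, their receptors and their latent-binding proteins were described in left atrial RNA of the rat. The members were taken by gene symbol and comprised 3 ligand genes (Tgfb1, Tgfb2 and Tgfb3), 3 receptor genes (Tgfbr1, Tgfbr2 and Tgfbr3) and 4 genes of latent-binding proteins (Ltbp1, Ltbp2, Ltbp3 and Ltbp4), 10 of the 21239 genes with counts in the series. All 10 were found, and all 10 passed the filter on low counts in every comparison.

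The series held 12 RNA-seq libraries of male rats, 3 in each of 4 groups. WKY rats (normotensive) and SHRs (a strain that develops hypertension) received saline at 7.5 ml/kg/day in the WKY and SHR groups. SHRs of the ARB-treated group received valsartan at 30 mg/kg/day, which blocks the angiotensin II type 1 receptor, and SHRs of the ARNI-treated group received sacubitril/valsartan at 60 mg/kg/day, which adds an inhibitor of neprilysin, an enzyme that degrades natriuretic peptides. All rats were bought at 14 weeks of age and treated for 4 weeks. In the 6 saline libraries, the title's words for the strain and the library name disagree, and the library name was followed. If the words of the title are right instead, every value between the SHR and WKY groups changes sign and the drug groups were set against WKY libraries. Expression values were not used to decide between the names. The valsartan and sacubitril/valsartan libraries carry both a WKY strain entry and an SHR phenotype entry, and were taken as SHRs. The labels identify the libraries as separate samples without saying more about their origin, so p-values measure the spread between these libraries.

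TGF-β is secreted in a latent form, in which the propeptide stays wrapped around the ligand and is joined to a latent TGF-β-binding protein that anchors the complex in the extracellular matrix. Once released, the ligand binds the type II receptor (Tgfbr2), which recruits and phosphorylates the type I receptor (Tgfbr1), and the signal passes to the nucleus through SMAD transcription factors. Betaglycan (Tgfbr3) is a co-receptor that presents ligand, above all the Tgfb2 product. In the heart the pathway is best known for driving fibroblast activation and matrix deposition.

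Several libraries went against their label of left atrium, which bears on every comparison. Myl7, the atrial myosin light chain, was at 0.889 to 15.9 CPM (which scales the count of a gene to the depth of its library) in the WKY libraries and at 9.67 CPM in ARNI replicate 2, but at 4478 to 11547 CPM in the other 8 libraries. Of 7 atrial cardiomyocyte markers, 6 (all but Kcna5) were lower in each WKY library than in each SHR library, and 4 to 6 lay under 10 CPM in the WKY libraries and 5 in ARNI replicate 2. Of 5 ventricular markers, all 5 were higher in each WKY library than in each SHR library. Their summed level was 43273 to 43595 CPM in the WKY group, 371 to 9833 CPM in the SHR group, 434 to 10625 CPM in the ARB group and 651 to 18563 CPM in the ARNI group. Myl2, the ventricular myosin light chain, was at 2298 CPM in SHR replicate 2, 2573 CPM in ARB replicate 3 and 4161 CPM in ARNI replicate 2. SHR replicate 2 and ARB replicate 3 thus held the markers of both chambers. Irx4, a transcription factor of the ventricle, was at 0 in 5 libraries, all of SHRs, and Bmp10 was at 0 in 2 WKY libraries. Since every WKY library lacked most atrial markers, strain and chamber cannot be told apart in the comparison of the SHR and WKY groups. Total counts ranged from 11252361 to 15823525.

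Tgfb2 and Ltbp2 were the 2 members that passed the thresholds between the SHR and WKY groups, so the 250 bases upstream of their annotated starts are shown (RefSeq, GRCr8, a later build than the Rnor_6.0 of the counts). Both lie on the minus strand and are read 5′ to 3′ in the direction of the gene, Tgfb2 from chr13:100792686-100792935 and Ltbp2 from chr6:110257299-110257548. Capitals mark CAGAC on either strand, the core motif of a SMAD-binding element.
Tgfb2: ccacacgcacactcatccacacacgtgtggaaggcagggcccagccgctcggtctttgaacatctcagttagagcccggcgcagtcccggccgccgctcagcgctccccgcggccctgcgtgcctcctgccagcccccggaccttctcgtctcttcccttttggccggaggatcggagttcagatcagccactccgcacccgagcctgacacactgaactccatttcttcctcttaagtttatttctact
Ltbp2: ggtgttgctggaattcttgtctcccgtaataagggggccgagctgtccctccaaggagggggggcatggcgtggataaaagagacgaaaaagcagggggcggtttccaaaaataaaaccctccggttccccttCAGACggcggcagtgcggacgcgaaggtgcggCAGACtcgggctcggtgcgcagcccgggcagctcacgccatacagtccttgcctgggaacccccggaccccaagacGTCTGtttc
CAGAC occurred 3 times in the Ltbp2 window and 0 times in the Tgfb2 window. It occurred 1 time in that of Ltbp1, 0 times in those of the other 7 members, and in 42.9% of 33469 rat promoter windows of the same length. Other motifs were searched on both strands too. The cyclic AMP response element TGACGTCA was in 1.59% of windows and, among the members, in that of Ltbp1. The GC box GGGCGG (30.5% of windows) was in those of Tgfbr1, Tgfbr2, Tgfbr3, Ltbp2, Ltbp3 and Ltbp4. The E-box CANNTG (N any base, 65.5%) was in those of Tgfb2, Tgfb3, Ltbp3 and Ltbp4. The T-box half-site AGGTGT, AP-1 (TGANTCA) and the TATA box TATAAA were in no member's window. These matches describe the letters only.

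Tgfb2 and Ltbp2 rose in the SHR group against the WKY group, and Tgfb1 and Tgfbr1 were close to level. Tgfb3, Ltbp3 and Tgfbr2 had groups that did not overlap in CPM without passing the test. The comparison was meant to ask what the left atrium of the hypertensive strain expresses differently under saline. Every WKY library lacked most atrial markers, so strain and chamber cannot be told apart in these values. Of the 10 members, 2 passed an absolute log2 fold change (log2 FC) of 1 and an adjusted p of 0.05 with edgeR's quasi-likelihood test, both higher in SHRs. Over all 13794 genes tested, 8.89% passed, 5.54% higher and 3.35% lower. With DESeq2, 2 members and 10.1% of genes passed. The count rested on single libraries: 0 members were called without WKY replicate 1 or WKY replicate 2, 1 without WKY replicate 3, SHR replicate 1 or SHR replicate 3, and 3 without SHR replicate 2. The share of all genes called moved too, to 2.78%, 2.49% and 2.46% without WKY replicates 1, 2 and 3, to 4.12% and 8.23% without SHR replicates 1 and 3, and to 15.7% without SHR replicate 2. In CPM without further scaling, every SHR library was above every WKY library in 5 members, as in 33.7% of all genes. In 0 members the groups lay apart the other way, as in 15.9%. On TMM-scaled totals the groups of Tgfbr2 overlapped. Of the 10 members, 8 had a log2 FC above 0, as had 51.3% of all genes, with a median of 0.40 against 0.01 over all genes. Without scaling of the libraries the median of all genes was 0.15, so TMM scaling moves that median by more than 0.1. The log2 FCs of edgeR here are relative to TMM scaling unless another scaling is named, whereas ratios of mean CPM are not.

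**Figure D1:**
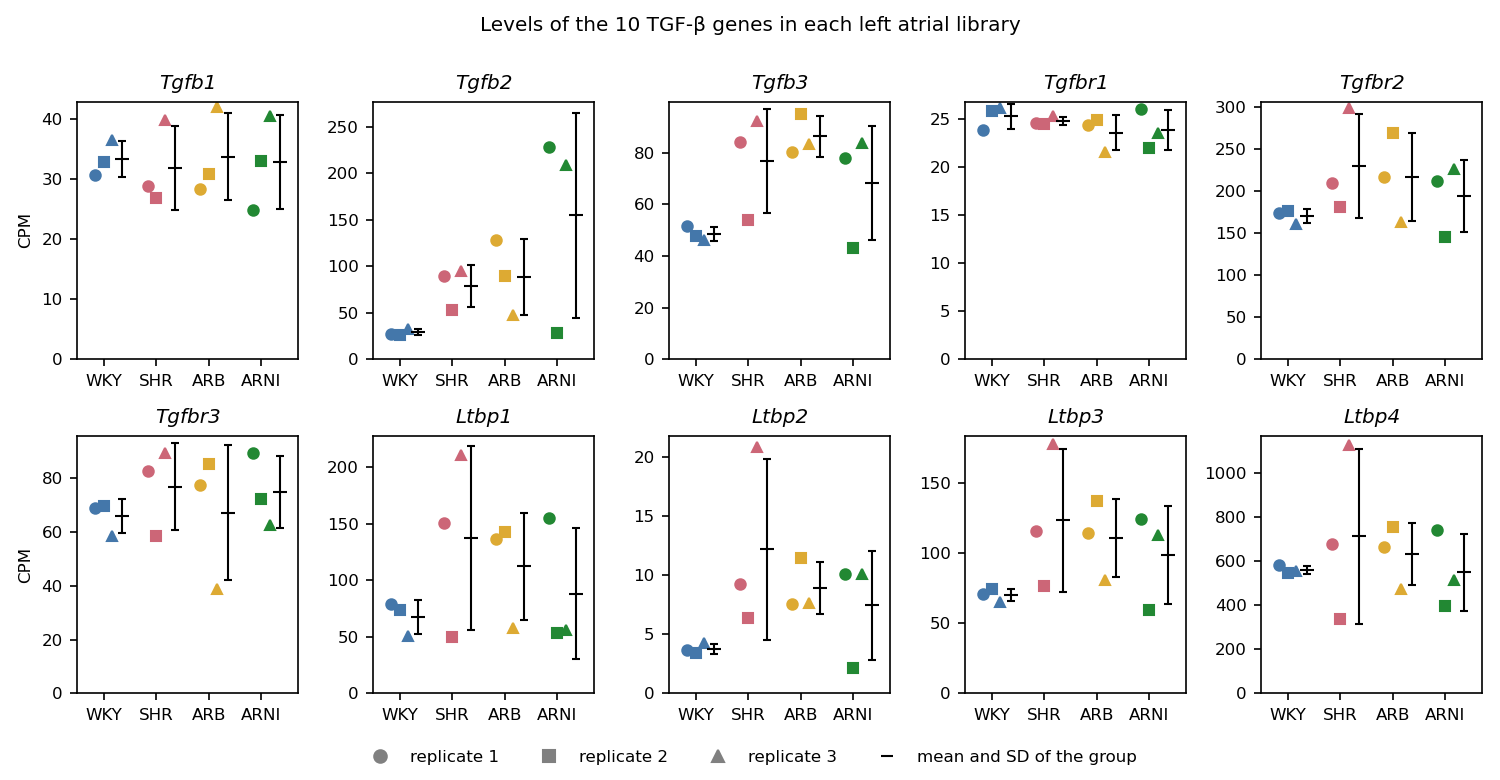
Level of each of the 10 members in each of the 12 libraries (points, CPM on a linear axis from 0, by group), with the mean (bar) and SD (n = 3) of each group. Tgfb2 ran from 26.5 CPM in WKY replicate 2 to 228 CPM in ARNI replicate 1, while Tgfbr1 kept between 21.5 and 26.1 CPM in all libraries.

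Among the ligands, Tgfb2 varied most between libraries. Tgfb2 (gene ID 81809), the ligand with the best known role in shaping the cardiac valves, was at 27.3, 26.5 and 32.5 CPM in WKY libraries, against 89.5, 53.1 and 94.6 CPM in SHR libraries. It was at 128, 89.7 and 47.2 CPM in ARB libraries and at 228, 27.7 and 208 CPM in ARNI libraries. The WKY and SHR groups did not overlap, SHR replicate 2 and ARB replicate 3 were the lowest of their groups, and ARNI replicate 2 lay within the WKY range. The mean was 28.8 ± 3.27 CPM in WKY rats and 79.1 ± 22.6 CPM in SHRs under saline (SD, n = 3), 2.75 times as high without TMM scaling. The log2 FC was 1.31 (standard error, SE, 0.20, adjusted p = 0.0115, edgeR's quasi-likelihood F test and Benjamini-Hochberg adjustment). The call was lost without WKY replicate 1 (log2 FC 1.27, adjusted p = 0.0600, edgeR) and without WKY replicate 2 (1.25, 0.0641), and with SHR replicate 2 left out the adjusted p was 0.000291.

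Tgfb3 (25717), which shares the receptors of the other ligands, was at 51.5, 47.6 and 46.1 CPM in WKY libraries, against 84.3, 53.8 and 92.2 CPM in SHR libraries. It was at 80.2, 95.1 and 83.5 CPM under ARB and at 78.0, 42.9 and 83.5 CPM under ARNI. The lowest value of the 12 was that of ARNI replicate 2, and SHR replicate 2 was the SHR library nearest to the WKY group. Its log2 FC between the SHR and WKY groups was 0.52 (SE 0.17, adjusted p = 0.0715, edgeR), which missed the threshold. Without SHR replicate 2 it was 0.70 (adjusted p = 0.00145, edgeR), past the adjusted p but under a log2 FC of 1.

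Tgfb1 (59086), the ligand most often tied to fibrosis, was at 30.7, 32.8 and 36.5 CPM in WKY libraries, against 28.8, 26.9 and 39.8 CPM in SHR libraries. Under ARB it was at 28.4, 30.8 and 42.0 CPM, and under ARNI at 24.8, 33.0 and 40.4 CPM. The groups overlapped throughout, and the third replicate was the highest in each of the 4 groups. The log2 FC between the SHR and WKY groups was -0.21 (SE 0.14, adjusted p = 0.301, edgeR, and -0.35 without SHR replicate 3, adjusted p = 0.0765), and the group means, 33.3 ± 2.96, 31.8 ± 6.94, 33.7 ± 7.28 and 32.8 ± 7.80 CPM (WKY, SHR, ARB and ARNI, SD, n = 3), differed by less than the SD of the 3 groups of SHRs.

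The balance between the ligand genes moved with Tgfb2. Since the table gives no transcript lengths, the ratios count reads, not molecules, and can be compared between libraries but not read as which ligand was the more abundant. There were 0.809 to 0.890 Tgfb2 reads per Tgfb1 read in the WKY libraries, 3.10, 1.98 and 2.38 in the SHR libraries, 4.51, 2.91 and 1.12 in the ARB libraries, and 9.18, 0.841 and 5.15 in the ARNI libraries. Tgfb2 took 24.8% to 28.2% of the reads of the 3 ligand genes in the WKY group and 39.7% to 44.2% in the SHR group. It took 54.1%, 41.6% and 27.3% in the ARB group and 68.9%, 26.8% and 62.7% in the ARNI group. The SHR libraries were all above the WKY libraries in this share, and ARB replicate 3 and ARNI replicate 2 lay among the WKY libraries.

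Tgfb2 and Ltbp3 also followed the chamber markers of the libraries, and Tgfb3, Ltbp2 and Tgfbr2 did so in part. In the 4 libraries with Myl7 under 100 CPM (the 3 WKY libraries and ARNI replicate 2), Tgfb2 was at 26.5 to 32.5 CPM. In the 2 libraries with both Myl7 and at least 1000 CPM of Myl2 (SHR replicate 2 and ARB replicate 3) it was at 47.2 to 53.1 CPM, and in the remaining 6 libraries at 89.5 to 228 CPM. The ranges of these libraries did not overlap. Tgfb3 was at 42.9 to 51.5, 53.8 to 83.5 and 78.0 to 95.1 CPM in the same libraries, where the last ranges overlapped. Ltbp2 was at 2.12 to 4.27, 6.39 to 7.69 and 7.60 to 20.9 CPM, and its last ranges overlapped too. Tgfbr2 was at 146 to 177, 164 to 181 and 209.6 to 299 CPM, where the first ranges overlapped. Ltbp3 was at 59.2 to 74.2, 76.8 to 81.0 and 113 to 178 CPM, with no overlap, whereas Tgfb1 was at 30.7 to 36.5, 26.9 to 42.0 and 24.8 to 40.4 CPM. The thresholds were chosen after the values were seen, so these ranges are a description. In 1 fit of all 12 libraries the call of Tgfb2 between the SHR and WKY groups was lost (log2 FC 1.31, adjusted p = 0.165, edgeR), and with a score of atrial minus ventricular markers as covariate the value turned to -1.08 (adjusted p = 0.157, edgeR). The scores of both groups do not overlap, so strain and chamber cannot be told apart there either.

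**Figure D2:**
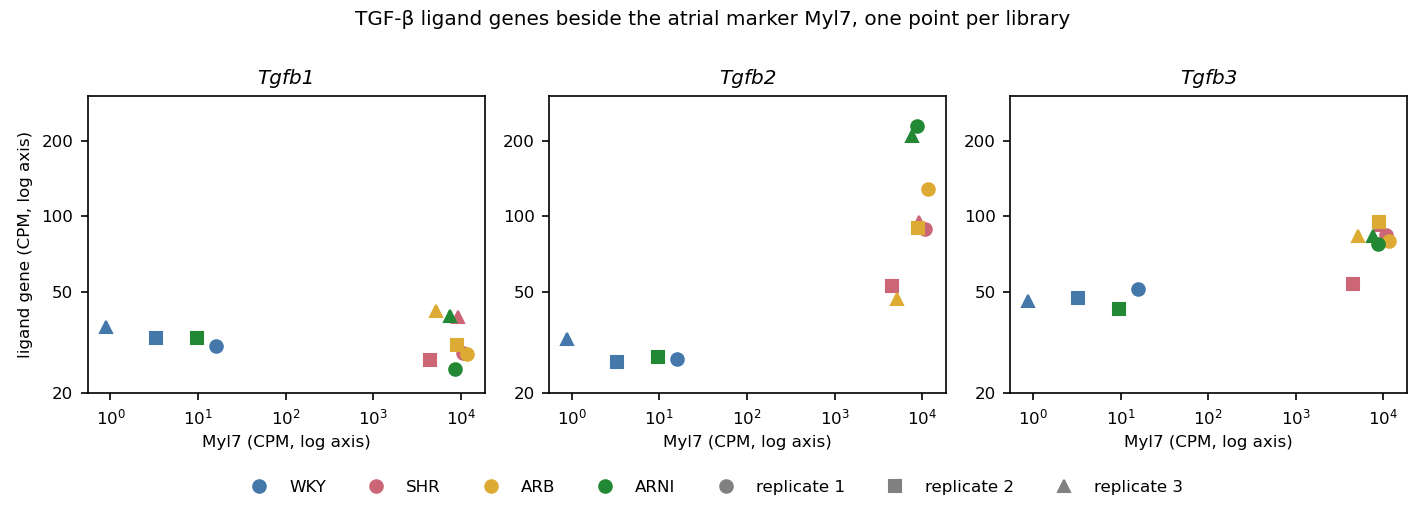
Level of the 3 ligand genes (CPM) against that of Myl7 (CPM, log axis), 1 point per library, coloured by group. The 4 libraries at the left, with Myl7 at 0.889 to 15.9 CPM, had 26.5 to 32.5 CPM of Tgfb2, and Tgfb1 overlapped across the axis.

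None of the 3 receptor genes passed the test between the SHR and WKY groups. Tgfbr1 (29591), the type I receptor kinase, was at 23.8, 25.8 and 26.1 CPM in WKY libraries, against 24.5, 24.4 and 25.3 CPM in SHR libraries. The ARB libraries had 24.3, 24.8 and 21.5 CPM and the ARNI libraries 26.0, 21.9 and 23.5 CPM. All 4 groups overlapped, and the log2 FC between the SHR and WKY groups was -0.16 (SE 0.09, adjusted p = 0.223, edgeR).

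Tgfbr2 (81810), the type II receptor that binds ligand, was at 174, 177 and 160.4 CPM in WKY libraries, against 209.6, 181 and 299 CPM in SHR libraries. It was at 217, 269 and 164 CPM under ARB and at 212, 146 and 226 CPM under ARNI. SHR replicate 3 was the highest of the 12 libraries and ARNI replicate 2 the lowest, and the WKY and SHR groups did not overlap in CPM. On TMM-scaled totals these groups did overlap, with 184.8 CPM in WKY replicate 2 and 182.9 CPM in SHR replicate 2. Its log2 FC was 0.28 (SE 0.16, adjusted p = 0.227, edgeR), and 0.10 without SHR replicate 3 (adjusted p = 0.452, edgeR).

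Tgfbr3 (29610), betaglycan, was at 69.0, 69.7 and 58.6 CPM in WKY libraries, against 82.7, 58.5 and 89.1 CPM in SHR libraries. It was at 77.5, 85.2 and 38.6 CPM under ARB and at 89.3, 72.3 and 62.7 CPM under ARNI. SHR replicate 2 lay just below the WKY libraries, and ARB replicate 3 was the lowest of all. The log2 FC between the SHR and WKY groups was 0.08 (SE 0.14, adjusted p = 0.704, edgeR), and it ran from 0.0072 without SHR replicate 3 to 0.22 without SHR replicate 2.

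The latent-binding proteins had the widest spread within the SHR group. Ltbp2 (59106) encodes a matrix protein of elastic fibres that, unlike the other family members, is not known to bind latent TGF-β. It was at 3.67, 3.39 and 4.27 CPM in WKY libraries, against 9.30, 6.39 and 20.9 CPM in SHR libraries, and at 7.60, 11.5 and 7.69 CPM under ARB and 10.1, 2.12 and 10.1 CPM under ARNI. SHR replicate 3 was the highest of the 12 libraries, ARNI replicate 2 the lowest, and the WKY and SHR groups did not overlap. With 27 to 308 reads per library it was the least read member. Its mean was 3.77 ± 0.447 CPM in WKY rats and 12.2 ± 7.66 CPM in SHRs under saline (SD, n = 3), 3.23 times as high without TMM scaling. With TMM scaling the log2 FC was 1.53 (SE 0.41, adjusted p = 0.0444, edgeR). The call held in 1 of the 6 fits that left out a library, that without SHR replicate 2 (log2 FC 1.81, adjusted p = 0.00618, edgeR). It was lost without WKY replicates 1, 2 or 3 (adjusted p = 0.134, 0.143 and 0.121, edgeR) and without SHR replicate 1 (0.0857), and without SHR replicate 3 the log2 FC was 0.96, under the threshold of 1 (adjusted p = 0.0403, edgeR).

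Ltbp1 (59107), which carries latent TGF-β to the matrix, was at 79.0, 73.8 and 50.9 CPM in WKY libraries, against 150.4, 50.1 and 211 CPM in SHR libraries. It was at 136, 143 and 58.0 CPM under ARB and at 155, 53.5 and 56.3 CPM under ARNI. SHR replicate 2 lay below the WKY libraries and the other SHR replicates lay above them, so that the groups overlapped. Its log2 FC was 0.85 (SE 0.45, adjusted p = 0.204, edgeR), and without SHR replicate 2 it was 1.24 and passed the thresholds (adjusted p = 0.00415, edgeR). Without SHR replicate 3 it was 0.46 (adjusted p = 0.465, edgeR).

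Ltbp3 (83838), another carrier of the latent complex, was at 70.7, 74.2 and 65.3 CPM in WKY libraries, against 116, 76.8 and 178 CPM in SHR libraries. It was at 114, 137 and 81.0 CPM under ARB and at 124, 59.2 and 113 CPM under ARNI. The WKY and SHR groups did not overlap, but SHR replicate 2 was close to the WKY range. The log2 FC was 0.66 (SE 0.25, adjusted p = 0.0989, edgeR), and without SHR replicate 2 it was 0.89 (adjusted p = 0.00525, edgeR). With SHR replicate 3 left out it was 0.36 (adjusted p = 0.156, edgeR).

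Ltbp4 (292734), which binds latent complexes of the Tgfb1 product and takes part in elastic fibre assembly, was at 582, 545 and 556 CPM in WKY libraries, against 677, 336 and 1129 CPM in SHR libraries. It was at 665, 754 and 476 CPM under ARB and at 741, 395 and 516 CPM under ARNI. SHR replicate 2 was the lowest and SHR replicate 3 the highest of the 12 libraries. Its log2 FC was 0.18 (SE 0.36, adjusted p = 0.733, edgeR), and without SHR replicate 3 it was -0.25 (adjusted p = 0.522, edgeR).

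Markers of other cell types moved with some of these values. The summed level of 8 fibroblast markers, all detected in every library, was 2044 to 2233 CPM in the WKY group, 1658 to 2779 CPM in the ARB group and 1375 to 3442 CPM in the ARNI group. In the SHR group it was 1863, 1481 and 5131 CPM, and SHR replicate 3 was also the library with the highest Tgfbr2, Ltbp1, Ltbp2, Ltbp3 and Ltbp4. In that library Pdgfra, at 97.8 CPM, lay within the WKY range, and the other fibroblast markers lay above it. ARNI replicate 3, with the next highest sum (3442 CPM), had Tgfbr2, Ltbp2 and Ltbp3 above the WKY range (226, 10.1 and 113 CPM). Its Ltbp1 (56.3 CPM) lay within that range and its Ltbp4 (516 CPM) below it. The 6 epicardial and mesothelial markers, likewise detected in every library, summed to 59.2 to 81.4 CPM in the WKY group, against 213 to 448 CPM in the SHR group. They summed to 263, 47.1 and 311 CPM in the ARNI group and to 207, 280 and 76.9 CPM in the ARB group, and the 5 libraries with sums under 100 CPM (the WKY libraries, ARB replicate 3 and ARNI replicate 2) were the 5 with the lowest Tgfb2. Wt1, on the same list, did not follow the sum. It was at 14.2 to 21.2 CPM in the WKY libraries and at 13.6 to 18.0 CPM in the SHR libraries. In ARB replicate 3 it was at 14.7 CPM and in ARNI replicate 2 at 15.3 CPM. The part of fibroblasts and of epicardial and mesothelial cells in the results was not tested. In bulk tissue, fewer cells of a type and less RNA per cell cannot be told apart.

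**Figure D3:**
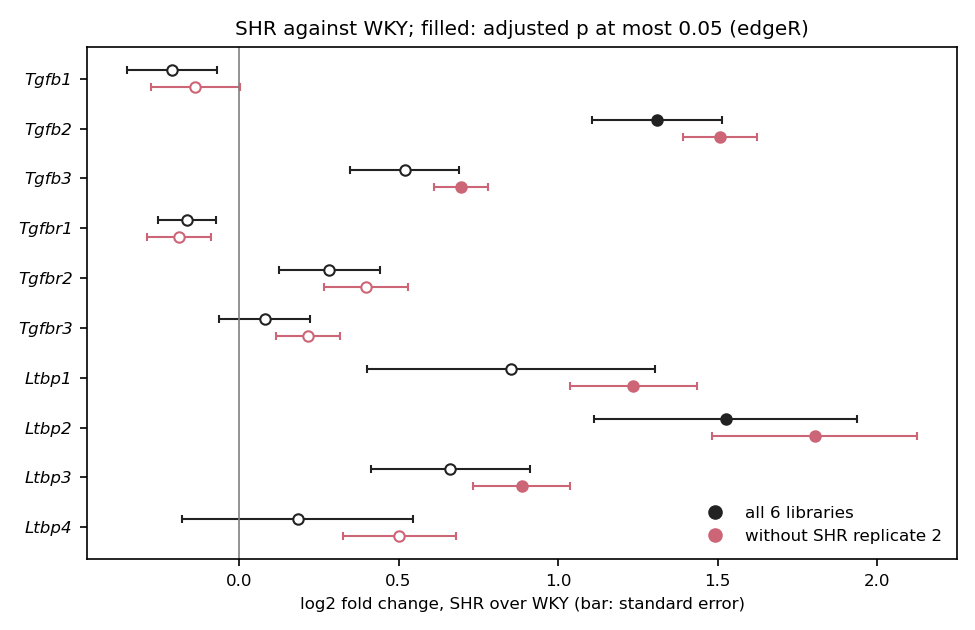
Log2 FC of each member between the SHR and WKY groups (points, edgeR, error bars are SEs), with the value without SHR replicate 2 beside it. Tgfb2 (1.31) and Ltbp2 (1.53) passed the thresholds with all libraries, and Tgfb1 (-0.21) and Tgfbr1 (-0.16) lay below 0.

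Beyond the members, 4 lists of pathway genes were counted between the SHR and WKY groups, where 20.6% of all genes passed an adjusted p of 0.05 with edgeR (12.3% higher and 8.26% lower). Of 25 tested genes of TGF-β activation and matrix storage (27 listed), 5 rose and 0 fell, or 20%, with a median log2 FC of 0.14. Of 30 genes of signal transduction and control, 7 rose and 3 fell, or 33.3%, with a median of 0.16. Of 24 tested response genes (28 listed), 1 rose and 2 fell, or 12.5%, with a median of 0.20, and of 30 tested genes of the activin and BMP branch (39 listed), 6 rose and 1 fell, or 23.3%, with a median of 0.34. The median over all genes was 0.01. These shares are a description with no test of the lists. Without SHR replicate 2, the genes that also passed a log2 FC of 1 numbered 5, 7, 8 and 9 in the 4 lists, against 3, 5, 2 and 4 with all libraries. In shares of the genes tested these were 20%, 23.3%, 33.3% and 29%, where 15.7% of all genes passed both thresholds without SHR replicate 2, against 12%, 16.7%, 8.33% and 13.3%, where 8.89% did with all libraries.

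Among the genes of activation and storage, Adamtsl2, whose product binds fibrillin and the latent-binding proteins, rose most. It was at 11.4, 8.26 and 9.78 CPM in WKY libraries, at 107, 42.3 and 100.05 CPM in SHR libraries and at 5.35 CPM in ARNI replicate 2 (log2 FC 2.93, SE 0.35, adjusted p = 0.00567, edgeR). Fmod, fibromodulin, a proteoglycan that binds TGF-β, was at 5.97, 10.1 and 10.7 CPM in WKY libraries, against 33.6, 38.6 and 45.9 CPM in SHR libraries (2.00, SE 0.23, adjusted p = 0.00536, edgeR). Both had SHR libraries far above the WKY range, and ARNI replicate 2 below it. Furin, the protease that cleaves the TGF-β precursor, rose by less (log2 FC 0.60, adjusted p = 0.0242, edgeR), and so did the serine protease gene Htra1 (0.52, 0.0416). Plg, which encodes plasminogen, passed as well (1.61, adjusted p = 0.0244, edgeR) at a level of only 0.355 to 3.26 CPM over the 12 libraries. Htra1 was named because it completes the 5.

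In the signalling list, the 4 largest rises were those of Tgif2, Smad6, Smad7 and Bambi. Smad7, an inhibitory SMAD, was at 31.1, 34.9 and 39.1 CPM in WKY libraries, against 129.8, 69.1 and 112 CPM in SHR libraries (log2 FC 1.42, SE 0.22, adjusted p = 0.0114, edgeR). Smad6, the other inhibitory SMAD, was at 23.2, 22.4 and 24.3 CPM in WKY libraries, against 118, 50.4 and 47.1 CPM in SHR libraries (1.49, SE 0.37, adjusted p = 0.0357, edgeR). Neither gene had overlapping groups, and both were near the WKY level in ARNI replicate 2 (38.8 CPM of Smad7 and 27.4 CPM of Smad6). Tgif2, a repressor of SMAD-driven transcription, and Bambi, a decoy receptor, rose by 1.62 and 1.30 on the log2 scale (adjusted p = 0.0244 and 0.0220, edgeR). The 3 genes that fell were Hipk2, a nuclear kinase (log2 FC -1.14, adjusted p = 0.0119, edgeR), Usp15, a deubiquitinase that acts on the type I receptor (-0.47, 0.0362), and Zfyve9, which brings SMADs to the receptor (-0.38, 0.0341). The SMADs that carry the TGF-β signal, picked for that role after the values were seen, did not pass the test: Smad2 had a log2 FC of 0.17 (adjusted p = 0.304, edgeR), Smad3 of 0.28 (0.326) and Smad4 of 0.18 (0.159).

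Few response genes passed. Tgfb1i1, a focal adhesion protein first found as induced by TGF-β, was at 17.4, 17.3 and 15.7 CPM in WKY libraries, against 71.2, 32.2 and 111 CPM in SHR libraries (log2 FC 1.93, SE 0.38, adjusted p = 0.0205, edgeR). Cdkn1a, a cell cycle inhibitor, went the other way, from 131, 109 and 143 CPM in WKY libraries to 7.96, 38.9 and 25.5 CPM in SHR libraries (-2.53, SE 0.53, adjusted p = 0.0235, edgeR). ARNI replicate 2 lay beside the WKY libraries for Tgfb1i1 (16.4 CPM) and between the groups for Cdkn1a (76.8 CPM). Tns1, a focal adhesion gene, fell by 0.84 on the log2 scale (adjusted p = 0.0420, edgeR). Ccn2 and Col1a1, picked as well-known targets after the values were seen, did not pass. Ccn2, connective tissue growth factor, was at 60.8 to 94.8 CPM in WKY libraries, against 177, 79.4 and 536 CPM in SHR libraries (log2 FC 1.60, SE 0.61, adjusted p = 0.104, edgeR). Col1a1, a fibrillar collagen, had 201 to 231 CPM in WKY libraries, and 249, 214 and 803 CPM in those of SHRs (0.77, SE 0.46, adjusted p = 0.254, edgeR). For both genes SHR replicate 3, the library with the highest fibroblast markers, was the highest of its group. Col1a1 is itself on the fibroblast marker list, so its high value there is part of that sum.

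In the activin and BMP branch, Bmp5 rose from 0.914, 0.781 and 0.474 CPM in WKY libraries to 15.9, 3.72 and 13.4 CPM in SHR libraries (log2 FC 3.76, SE 0.61, adjusted p = 0.0125, edgeR). Bmp2 rose from 3.67, 3.22 and 3.20 CPM to 10.2, 7.02 and 12.5 CPM (1.41, SE 0.22, adjusted p = 0.0109, edgeR), and Hjv, a BMP co-receptor, by 0.97 on the log2 scale (adjusted p = 0.00510, edgeR). Gdf11, a ligand close to myostatin, fell from 19.1, 20.001 and 24.3 CPM to 4.75, 9.54 and 6.03 CPM (-1.77, SE 0.29, adjusted p = 0.0130, edgeR). Bmp10, a ligand of atrial myocytes that is also on the atrial marker list, had 0, 0 and 0.0889 CPM in WKY libraries and 933, 186 and 1.02 CPM in SHR libraries (adjusted p = 0.0319, edgeR). In ARNI replicate 2 Bmp5 was at 0.145, Bmp2 at 3.93, Gdf11 at 15.5 and Bmp10 at 0.550 CPM, each nearer to the WKY than to the SHR mean.

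**Figure D4:**
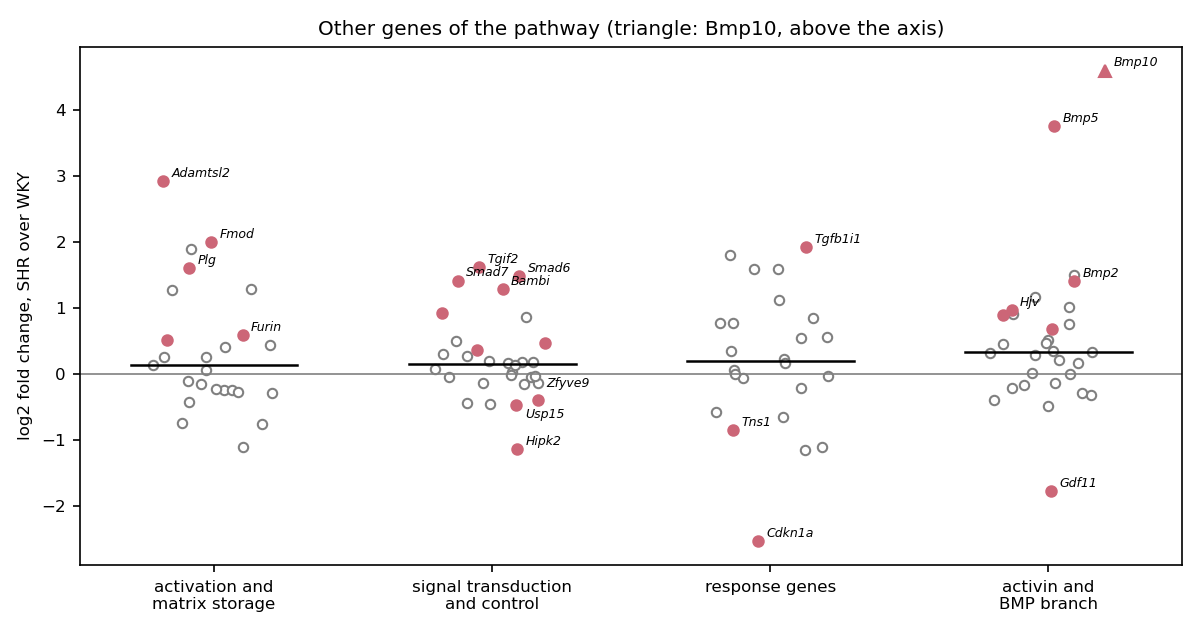
Log2 FC between the SHR and WKY groups of the tested genes of the 4 pathway lists (points, filled where the adjusted p passed 0.05, named genes labelled, Bmp10 drawn as a triangle above the axis; horizontal offsets within a list are for display) and the median of each list (line). The medians were 0.14, 0.16, 0.20 and 0.34, in the order activation and storage, signalling, response genes and the activin and BMP branch.

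No member passed the test in the 3 comparisons that involve the drugs, which ask whether valsartan or sacubitril/valsartan changed these genes in SHRs and whether the drugs differed. Between the ARB and SHR groups, 0 of 10 members passed, and over all 13979 genes 0.0% passed with edgeR. At an unadjusted p under 0.05 there were 0 members and 225 genes (1.61%), and DESeq2 called 0 members and 3 genes (0.0163%). The members' log2 FCs ran from -0.40 (Ltbp2) to 0.21 (Tgfb3), and none had groups that did not overlap, against 2.4% of all genes higher and 3.0% lower. The SEs of the members ran from 0.11 (Tgfbr1) to 0.51 (Ltbp1), which sets the size of change that these libraries could show. The comparisons against the SHR group share its 3 libraries.

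Between the ARNI and SHR groups, 0 of 10 members and 0.0% of 13955 genes passed with edgeR, with 0 members and 227 genes (1.63%) at an unadjusted p under 0.05 and 0 members and 7 genes (0.0437%) called by DESeq2. The log2 FCs ran from -0.65 (Ltbp2, SE 0.63) to 1.001 (Tgfb2, SE 0.68, adjusted p = 0.999, edgeR), and all groups overlapped, where 1.38% of genes were higher without overlap and 5.18% lower. Between the ARNI and ARB groups, 0 of 10 members and 0.0% of 13948 genes passed with edgeR, with 0 members and 539 genes (3.86%) at an unadjusted p under 0.05 and 0 members and 18 genes (0.124%) called by DESeq2. The log2 FCs ran from -0.30 (Tgfb3) to 0.82 (Tgfb2, SE 0.71, adjusted p = 0.993, edgeR), and again no member had separate groups, against 3.01% of genes higher and 7.52% lower.

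The value of Tgfb2 under sacubitril/valsartan depended on single libraries. ARNI replicates 1 and 3, at 228 and 208 CPM, were the highest of the 12 libraries, while ARNI replicate 2, which lacked atrial markers, was at 27.7 CPM, so that the group mean was 155 ± 110.4 CPM (SD, n = 3). Without ARNI replicate 2 the log2 FC against the SHR group was 1.49 (SE 0.24, unadjusted p = 0.00106, adjusted p = 0.9997, edgeR). With both ARNI replicate 2 and SHR replicate 2 left out it was 1.30 (SE 0.15, unadjusted p = 0.000391, adjusted p = 0.9999, edgeR), and against the ARB group without ARNI replicate 2 it was 1.30 (SE 0.38, adjusted p = 0.942, edgeR). Leaving out ARNI replicate 1 or 3 lowered the value against the SHR group to 0.61 and 0.75 (adjusted p = 0.852 and 0.996, edgeR). Against the ARB group it was 0.42 without ARNI replicate 1, 0.58 without ARNI replicate 3 and 0.54 without ARB replicate 3 (adjusted p = 0.911, 0.963 and 0.962, edgeR). With the replicate number as a block, in all libraries of the ARNI and SHR groups, the log2 FC was 0.64 (SE 0.46, adjusted p = 0.851, edgeR). In the fit of all 12 libraries with the marker score as covariate, it was 1.18 against the SHR group (SE 0.21, unadjusted p = 0.000221, adjusted p = 0.349, edgeR). Against the ARB group that fit gave 1.075 (SE 0.21, unadjusted p = 0.000462, adjusted p = 0.200, edgeR). None of these passed the adjustment over all genes.

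Of the pathway lists, 0 genes passed an adjusted p of 0.05 in the 3 drug comparisons, with edgeR or with DESeq2, and at an unadjusted p under 0.05 each list had 0 to 2 genes in each comparison with edgeR. The list of response genes had a median log2 FC of -0.27 between the ARB and SHR groups, -0.02 between the ARNI and SHR groups and 0.30 between the ARNI and ARB groups, against -0.01, 0.00 and 0.02 over all genes. Between the ARNI and SHR groups DESeq2 gave a median of 0.11, of the opposite sign.

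**Figure D5:**
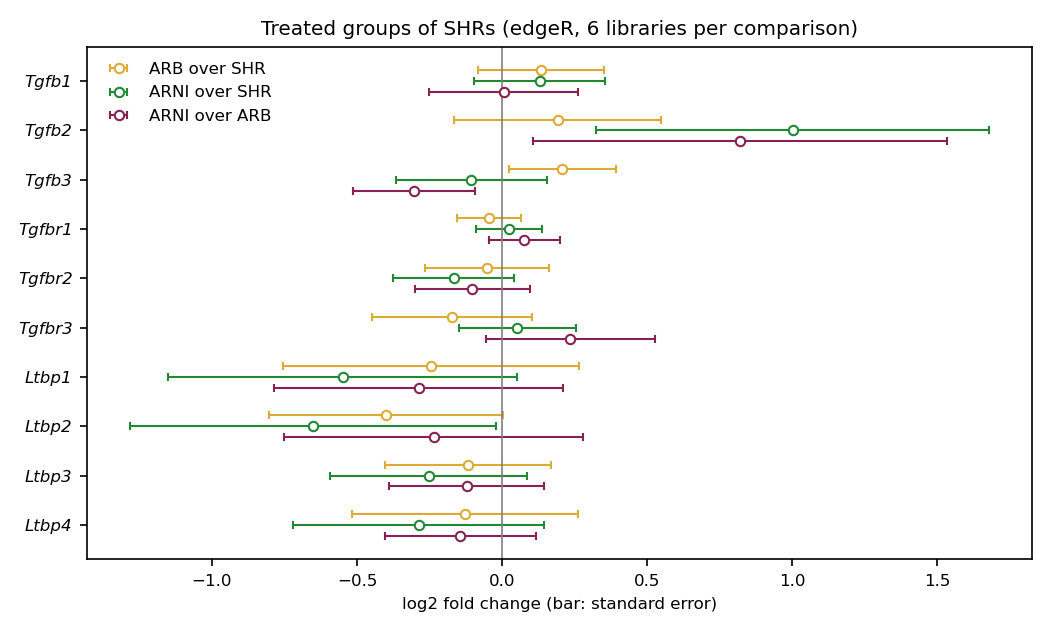
Log2 FC of each member (points, edgeR, error bars are SEs) between the ARB and SHR, the ARNI and SHR, and the ARNI and ARB groups. The points lay between -0.65 (Ltbp2, ARNI against SHR) and 1.001 (Tgfb2, ARNI against SHR), and none passed the test.

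The genes whose log2 levels ran most closely with each ligand over the 12 libraries, among 14452 genes, differed between the ligands. For Tgfb1 they were Kcnk6, Capg and Anxa4 (Pearson's r = 0.930, 0.907 and 0.899). For Tgfb2 they were Slc9b2, Baiap2 and Inpp5j (0.978, 0.968 and 0.967), and for Tgfb3 they were Tmem62, Eef1a1 and Tmem254 (0.979, 0.961 and 0.959). Capg, an actin-capping protein, was highest in ARB replicate 3 (45.8 CPM), as Tgfb1 was. Inpp5j, a phosphoinositide phosphatase, was at 36.7 to 45.0 CPM in WKY libraries, at 107 and 95.8 CPM in ARNI replicates 1 and 3 and at 35.9 CPM in ARNI replicate 2. The 12 points share the group structure and the chamber markers of the libraries, so these values are a description.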

How the data were processed

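Single-end RNA-seq reads of 12 left atrial libraries were mapped by the authors with HISAT2 (2.0.4) and Bowtie2 (2.2.5) to Rnor_6.0, per the submitters' processing notes, and the authors deposited expected counts per gene from RSEM, without normalization. Expected counts split reads that match several genes (23.6% of values were not whole). The same deposited table holds a log2 fold change and a p-value of the authors' own SHR and WKY comparison, which were not used. Libraries were grouped by library name.

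Expected counts were rounded, filtered with filterByExpr, scaled by TMM and tested for each pair of groups (6 libraries) with the quasi-likelihood F test of edgeR (4.0.16, R 4.3.3) and Benjamini-Hochberg adjustment over all genes tested. Genes were called where the log2 fold change reached 1 in size and the adjusted p was 0.05 or lower. The SE given with edgeR values is approximate: the size of the log2 fold change divided by the square root of the F statistic. The steps were tested on simulated counts in which replicates of a group differed by random spread alone. That test does not cover groups whose libraries differ in chamber markers. DESeq2 (1.42.0), other scalings, no filter, 1 fit of all libraries, a marker score as covariate, a replicate block and each library left out were the alternatives. CPM is the expected count before rounding, scaled to the library total, and 3 reads stood for 0.190 to 0.267 CPM, for counting error only. Pearson correlations used log2(CPM + 1) on TMM-scaled totals. Figures were drawn with matplotlib 3.10.9.

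Named were all members, up to 4 genes per direction of each list with the largest change among those past the adjusted p, 3 genes most like each ligand and chamber markers. Others are named as chosen for another reason. Members, lists and markers were chosen with earlier results of these data known. All 10 gene IDs were found in the RefSeq table of GRCr8, which was used for names and promoter sequences.

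Deviations from the group means of same-numbered libraries had correlations of -0.07 to 0.03 between SHR and WKY, -0.25 to 0.42 between ARB and SHR, 0.19 to 0.51 between ARNI and SHR and -0.45 to 0.52 between ARNI and ARB. Only the ARNI and SHR groups met the rule used for pairing by number (every pair over 0.1). Different-numbered libraries of these groups reached 0.064 at most. In other comparisons, different-numbered libraries reached 0.51 (ARB replicate 3 with SHR replicate 2) and 0.58 (ARNI replicate 2 with ARB replicate 3). High values were thus not limited to shared numbers. The labels do not say what a number marks. In the ARNI and SHR groups replicate 2 was the library with the most Myl2 (2298 CPM in SHR and 4161 CPM in ARNI). In the ARB group it was replicate 3 (2573 CPM). The part of the chamber markers in these correlations was not tested.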

Additional observations from a re-analysis of the deposited data

How the results depend on the processing

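Between the SHR and WKY groups, 2 members were called with DESeq2, other scalings or no filter, but 0 in 1 fit of all 12 libraries (adjusted p of Tgfb2 0.165 and of Ltbp2 0.0855, edgeR), 0 with the atrial minus ventricular marker score as covariate, 1 with the replicate block (Tgfb2, 1.29, adjusted p = 0.0290, edgeR; Ltbp2, 1.39, 0.0567), and 0 to 3 when 1 library was left out. Counts at the adjusted p alone, an alternative chosen after seeing the data, were 0, 0, 1 and 0 to 5. The lists' counts became 5 (activation and storage) with DESeq2, and 5, 8 (response) and 9 (activin and BMP) without SHR replicate 2, also chosen after seeing the data, where the share of all genes called rose from 8.89% to 15.7%; it was 2.46% to 8.23% in the other 5 fits that left out a library, 4.94% with the block, 4.01% in 1 fit of all 12 libraries and 0.637% with the covariate. The replicate block changed no call in the other comparisons, where 0 members passed under every alternative, although for Tgfb2 between the ARNI and SHR groups it moved the log2 fold change from 1.001 to 0.64.

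With the covariate the SHR and WKY values of Tgfb1 (0.16), Tgfb2 (-1.08, adjusted p = 0.157, edgeR), Tgfb3 (-0.13), Tgfbr2 (-0.21), Tgfbr3 (-0.28), Ltbp1 (-0.67), Ltbp2 (-0.18), Ltbp3 (-0.30) and Ltbp4 (-0.70) turned sign. The scores of the WKY libraries (-8.79 to -8.65) and SHR libraries (-0.31 to 6.61) do not overlap, so these values are extrapolated and cannot separate strain from chamber. Reversals, none past the threshold, were also seen between ARNI and SHR for Tgfb1 (-0.020, without both second replicates), Tgfb3 (0.035, covariate), Tgfbr1 (-0.053, unscaled) and Tgfbr3 (-0.037, unscaled, and -0.12, without both second replicates), and between ARNI and ARB for Tgfb1 (-0.041, unscaled; -0.012, all 12 libraries; -0.095, covariate), Tgfbr2 (0.010), Ltbp1 (0.081), Ltbp3 (0.073) and Ltbp4 (0.053), all 4 with the covariate.

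Leaving out 1 library turned the sign of Ltbp4 between SHR and WKY (-0.25 to 0.50). Between ARB and SHR it did so for Tgfb1 (-0.11 to 0.27), Tgfb2 (-0.19 to 0.47), Tgfbr2 (-0.19 to 0.13), Tgfbr3 (-0.33 to 0.079), Ltbp1 (-0.63 to 0.15), Ltbp2 (-0.68 to 0.17), Ltbp3 (-0.34 to 0.18) and Ltbp4 (-0.44 to 0.31). Between ARNI and SHR it did so for Tgfb3 (-0.28 to 0.099), Tgfbr1 (-0.015 to 0.074), Tgfbr2 (-0.28 to 0.023), Tgfbr3 (-0.081 to 0.20), Ltbp3 (-0.48 to 0.058) and Ltbp4 (-0.61 to 0.16), and between ARNI and ARB for Tgfb1 (-0.11 to 0.25), Tgfbr2 (-0.23 to 0.029), Tgfbr3 (-0.016 to 0.39), Ltbp2 (-0.52 to 0.17) and Ltbp3 (-0.31 to 0.093). The cause of these reversals was not tested. Of 40 group means, 4 moved by more than 1 SD on TMM-scaled totals. With 3 libraries a group, changes of the size of the standard errors given were not detectable.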

Other observations

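Single libraries stood apart in markers of cell types that no comparison was about. ARNI replicate 3 had a summed level of 682 CPM over 4 smooth muscle markers, against 101 to 204 CPM in the other 11 libraries, and 90.2 CPM over 5 neuronal markers, against 5.33 to 18.8 CPM. Ccn2, a TGF-β response gene, was at 728 CPM in the same library and at 552 CPM in ARNI replicate 1, the highest values of the 12 libraries, and Acta2, smooth muscle actin, at 351 and 168 CPM. The other smooth muscle markers were not high in ARNI replicate 1, with Myh11 at 20.9, Tagln at 4.93 and Cnn1 at 1.64 CPM. ARB replicate 2 and ARNI replicate 3 had 361 and 391 CPM over 5 adipocyte markers, against 0.0669 to 15.3 CPM elsewhere. Eng, endoglin, an endothelial co-receptor of the TGF-β family, was at 337 to 418 CPM in WKY libraries, against 1006, 429.6 and 852 CPM in SHR libraries (log2 FC 0.87, SE 0.29, adjusted p = 0.0732, edgeR). These genes were named after their values were seen.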
